A study of Homo sapiens with 4 samples.

Results

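Processed pseudogenes outside the families named after ribosomal proteins were examined in RNA from the nucleus and the cytoplasm of HEK293T cells. The deposited table types 8338 genes as processed pseudogenes. Of these, 141 were selected on measured values: a mean normalized count of at least 10 over the 4 libraries and a symbol that does not have the form of a ribosomal protein pseudogene. The table lists 7372 processed pseudogenes of such other names, and 2193 of these had a mean above 0. HEK293T is an established line derived from human embryonic kidney and expressing a viral T antigen. The study compared 2 nuclear with 2 cytoplasmic libraries of wild-type cells, which asks where each RNA resides. All cells had been crosslinked with formaldehyde before they were fractionated, so this step is shared by both groups, and there was no uncrosslinked group among the libraries used here. The libraries came from 2 biological replicates and from 400 ng of RNA each, and the kit depleted ribosomal RNA. Because the same mass of RNA entered each library, a value is a share of the RNA in its fraction, and amounts per cell cannot be read from it.

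A processed pseudogene is a copy of a spliced mRNA that was reverse transcribed and inserted elsewhere in the genome. It has no introns of its parent gene and usually lacks the parent's promoter, and highly expressed housekeeping mRNAs have left the most copies. Because a young copy is almost identical to its parent, short reads from one cannot always be told from reads of the other. The values below therefore describe reads that were assigned to these loci, and the assignment of reads between near-identical copies is uncertain. How reads with several possible placements were handled is not given in the sources used here.

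The class was checked against sequence before its values were read. In the table, 78 of the 141 pseudogenes had a symbol and 63 did not. The newer GENCODE 44 annotation names 20 of the 63, and 17 of these names are ribosomal protein ones such as RPL6P10 and RPS18P5. Of the 43 that have an identifier only, 18 were closest in sequence to a ribosomal protein transcript. In all, 35 of the 141 were copies of ribosomal protein mRNAs, so the class is not free of them. For 130 of the 141, a protein-coding transcript matched at least 80% of the pseudogene's length, and these matches gave 100 different parent genes. The other 11 had no such match. GENCODE 44 places all 141 on hg38, over 22 chromosomes, with 132 as a single exon block. It types 140 as processed pseudogenes and ZNF204P, a zinc finger relative, as a transcribed unprocessed pseudogene.

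Copies of 3 parents show how far the loci have drifted from the mRNA they came from. Each set gives 30 bases of the parent's coding sequence and the same stretch in its copies, from GENCODE 44 on hg38, 5′ to 3′ on the gene's own strand. The stretch was chosen so that its differing bases came closest to the identity of the copies to the parent. Capitals mark bases that differ from the parent. The first set is EEF1A1, which encodes the elongation factor that brings aminoacyl-tRNAs to the ribosome. It is shown because its copies held the most reads of any family here.
EEF1A1 (chr6:73519933-73519962, minus strand): ccactactggccatctgatctataaatgcg
EEF1A1P5 (chr9:133019550-133019579, plus strand): ccactactggccatctgatctataaatgcg
EEF1A1P13 (chr5:14653233-14653262, minus strand): ccactactggccatctgatctataaatgcA
EEF1A1P12 (chr2:106698583-106698612, minus strand): ccactactggccatctgatctaCaaaGgcg
EEF1A1P9 (chr4:105484756-105484785, plus strand): ccactactggccatctgatctaCaaatgcg

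The second set is GAPDH, a glycolytic enzyme gene, and it is shown because its 3 copies fell on different sides of the fraction comparison. The stretch of GAPDHP21 differs from the parent at 4 of the 30 bases, that of GAPDHP65 at 2 and that of GAPDHP1 at 1.
GAPDH (chr12:6536684-6536713, plus strand): gtttacatgttccaatatgattccacccat
GAPDHP1 (chrX:39787978-39788007, minus strand): gtttacatgttccaatatgaCtccacccat
GAPDHP65 (chrX:46440556-46440585, minus strand): gtCtacatgttccaGtatgattccacccat
GAPDHP21 (chr10:55668192-55668221, minus strand): gtCtacatgAtcTaGtatgattccacccat

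The third set is SNX18, a sorting nexin gene of membrane trafficking. Of its 3 copies, 1 was called higher in the nucleus and none in the cytoplasm by limma. They are the most diverged of the 3 families, at 75.4%, 75.7% and 73.2% identity. In the chosen stretch, 7, 7 and 8 of the 30 bases differ.
SNX18 (chr5:54519151-54519180, plus strand): acgagatggtgggcgccaacttcttcctga
SNX18P7 (chr9:33576402-33576431, plus strand): aTgagGtggtgAATTccaGcttcttcctga
ENSG00000277103 (chr9:97152478-97152507, minus strand): aTgagatggtgAATTccaGcttcttTctga
SNX18P14 (chr2:94787051-94787080, minus strand): aTgagaCggtgAgTgccaGAttctCcctgG

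The deposited table holds a mean over the libraries and no count of a single library, and the counts below were solved from it. Each of the 141 pseudogenes was given 1 set of 4 whole counts, 107 from the mean alone and 32 with the deposited fold change as a second equation. For the other 2, KRT8P4 and PCBP2P1, no set matched that fold change within the tolerance, and the nearest set was taken. The solved genes held 15378389 and 13246149 counts in the nuclear libraries and 9686469 and 8856463 in the cytoplasmic ones, which leaves out 1145 genes with means over 3500. In each fraction, library A is the one with the larger size factor. NEAT1, a lncRNA of nuclear paraspeckles, had a mean normalized count of 5120 in the nuclear and 601 in the cytoplasmic libraries, that is, it was higher in the libraries taken as nuclear. The HEK293T markers NEFL, NEFM, PAX2 and LIN28B had authors' means from 63.1 to 16264. Of the markers of other cell types, PTPRC, HBB and ALB had means under 2 and COL1A1 had 213.

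Most of these pseudogenes were more abundant in the cytoplasm. The pseudogenes had a median log2 difference (cytoplasm minus nucleus, on log2(normalized count + 0.5)) of 2.21, against -0.20 over the 23953 genes tested. By limma with a Benjamini-Hochberg adjusted p of at most 0.01 over all genes tested, 86 of the 141 were called higher in the cytoplasm, 17 were called higher in the nucleus and 38 were not called. Those are 61.0% and 12.1% of the class. Both counts were 0 without nuclear library A and without nuclear library B, where no gene of the 23953 passed in limma. The pseudogenes with a difference above 0 were 106 of 141, and 105 and 106 without these libraries. Over all genes tested, 23.6% were called higher in the cytoplasm and 27.4% in the nucleus. Over tested genes with a mean of at least 10, the shares were 33.7% and 36.5%. Both cytoplasmic libraries lay above both nuclear ones for 103 of the 141, and the reverse held for 31. Over all solved genes with a mean of at least 10, these shares were 43.9% and 47.5%. Without the 35 ribosomal protein copies the median was 1.73, with 57 called higher in the cytoplasm and 17 in the nucleus of 106.

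In single libraries, the 141 loci together held 3580 and 3565 counts in nuclear libraries A and B and 7274 and 5509 in cytoplasmic libraries A and B. After division by the size factors, the sums were 2670 and 2998 in the nucleus and 8529 and 7301 in the cytoplasm, so the sums of the fractions did not overlap. The loci were thinly covered: the median mean normalized count was 19.6, 77 of the 141 had a mean under 20 and 9 had at least 100. The 12 highest held 40.3% of the summed mean. A mean of at least 10 within a fraction was reached by 46 of the 141 in both fractions, by 72 in the cytoplasm alone and by 23 in the nucleus alone. A low locus thus entered the class mostly through the fraction where it was high, and no count over the class is free of that choice.

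**Figure D1:**
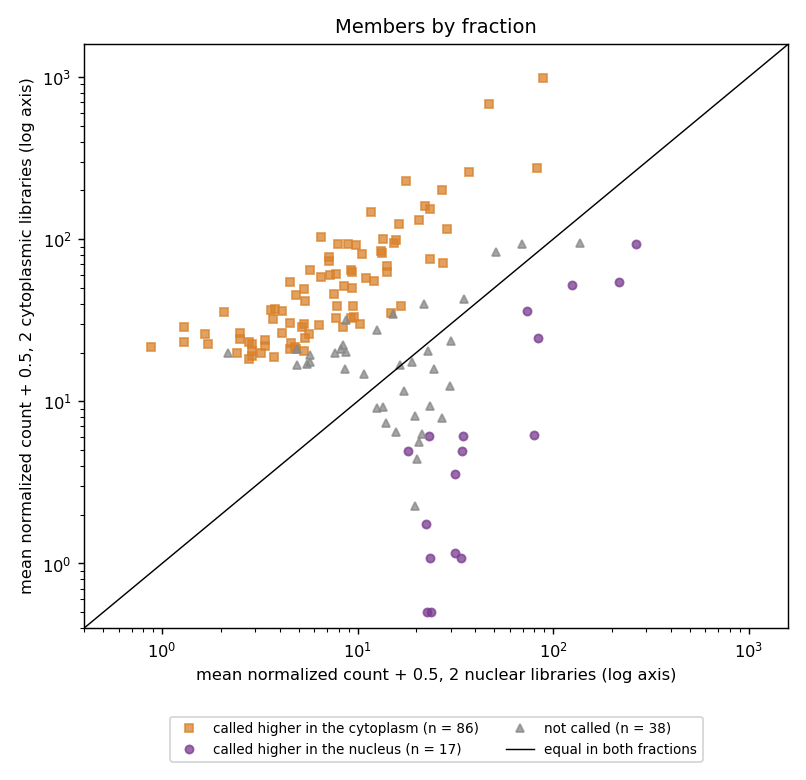
Mean normalized count plus 0.5 of each pseudogene in the 2 nuclear (horizontal) and the 2 cytoplasmic libraries (vertical), both on log axes, with colours and shapes for the limma call. The 86 squares called higher in the cytoplasm lie above the line of equal values and the 17 circles called higher in the nucleus lie below it.

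Copies of translation factor mRNAs were all more abundant in the cytoplasm. All 17 pseudogenes named after such factors were called, with log2 differences from 2.20 to 3.69, and 11 of them, on 9 chromosomes, are copies of EEF1A1. EEF1A1P5 (chr9:133019486-133020874, plus strand) had the highest mean of the class. Its normalized counts were 70.8 and 106 in nuclear libraries A and B and 1124 and 861 in cytoplasmic libraries A and B. The lowest cytoplasmic value was thus well above the highest nuclear one, and the log2 difference was 3.50 ± 0.22 (SE, n = 2 libraries per fraction, limma adjusted p = 6.19e-06). EEF1A1P13 had 23.1 and 50.5 in the nucleus and 325 and 193 in the cytoplasm. Its fractions were also apart, by 2.86 ± 0.39 (limma adjusted p = 0.000441), and its replicates differed more than those of EEF1A1P5. EEF1A1P12 had 14.9 and 19.3 in the nucleus and 189 and 269 in the cytoplasm, a log2 difference of 3.69 ± 0.25 (limma adjusted p = 1.05e-05). The values of EEF1A1P9 were 19.4 and 33.6 in the nucleus and 247 and 156 in the cytoplasm. EEF1A1P11 had 20.1 and 26.1 in the nucleus and 191 and 115 in the cytoplasm. Both were called, at log2 differences of 2.92 and 2.67.

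The 11 EEF1A1 copies had identities to the parent from 91.7% to 99.7% and log2 differences from 2.20 to 3.69. The 4 copies with at least 95% identity had a median of 2.89 and the 7 others had 2.81. The copies summed to a mean normalized count of 1254, which was 23.3% of the sum of the class. EEF1A1 itself had an authors' mean of 219870, so the reads at all 11 copies together came to 0.571% of those at the parent, as a ratio of counts and not of levels per length. For EEF1A1P5 alone this ratio was 0.246%, and 69.0% of its 100-base windows, the length of a read, occur unchanged in an EEF1A1 transcript. EEF1A1P35, EEF1A1P38, EEF1A1P22, EEF1A1P8 and EEF1A1P24 shared no such window, and they were called with log2 differences of 2.69, 3.06, 2.87, 2.20 and 2.70. Their normalized counts in nuclear A, nuclear B, cytoplasmic A and cytoplasmic B were 14.2, 26.1, 163 and 99.4 for EEF1A1P35. Those of EEF1A1P22 were 5.22, 9.25, 87.9 and 33.1. Cytoplasmic library A was above B for 9 of the 11 copies and nuclear library B above A for 9 of the 11. The whole class leaned the same way, with 94 and 91 of 141. Over solved genes with a mean of at least 10, cytoplasmic A was above B for 44.9%, and nuclear B above A for 49.3%.

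The other 6 translation factor copies had lower counts. EIF4BP3 and EIF4BP7 derive from EIF4B, a helper of the initiation helicase, and EIF4A1P10 derives from that helicase. EIF4BP3 had 14.9 and 28.6 in the nucleus and 150 and 171 in the cytoplasm, a log2 difference of 2.92 ± 0.32 (limma adjusted p = 0.000122). EIF4BP7 had 8.95 and 14.3 in the nucleus and 59.8 and 50.4 in the cytoplasm. EIF4A1P10, EIF3FP3, EEF1B2P3 and EIF4HP1 had log2 differences of 2.21, 3.47, 3.35 and 2.93. In none of these 6 did the fractions overlap. No pseudogene of a poly(A)-binding protein gene was in the class. PAIP1P2, a copy of the poly(A)-binding protein interacting protein 1 gene, had 7.46 and 10.1 in the nucleus and 69.2 and 58.3 in the cytoplasm.

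**Figure D2:**
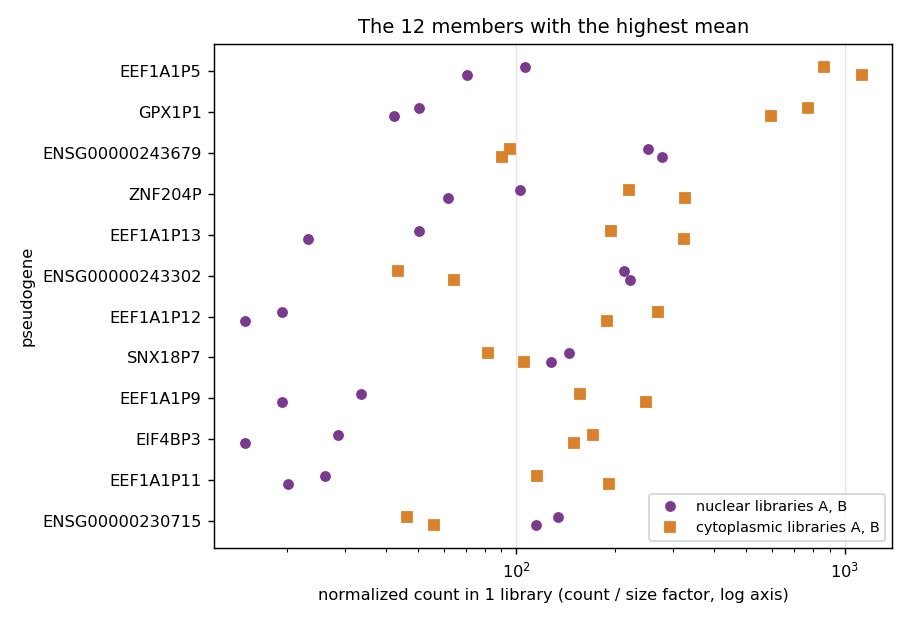
Normalized count in each library, on a log axis, for the 12 pseudogenes with the highest mean, with 2 circles for the nuclear and 2 squares for the cytoplasmic libraries. The squares lie to the right for 8 of them, and to the left for the 3 neighbouring loci of chromosome 7 and for SNX18P7.

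Most copies of ribosomal protein mRNAs were more abundant in the cytoplasm, and the few negative differences were at diverged copies. Of the 35, 29 were called higher in the cytoplasm, none was called higher in the nucleus by limma and 6 were not called, with a median log2 difference of 2.51. All 24 with at least 95% identity to their parent had a positive difference, from 1.74 to 4.16. RPL6P10 had the highest mean among those with a ribosomal protein name: 11.9 and 18.5 in the nucleus and 103 and 92.8 in the cytoplasm (log2 difference 2.68 ± 0.29, limma adjusted p = 0.000113). RPL36P5 had the largest log2 difference of the class, 4.78, from 0.746 and 0 in the nucleus and 21.1 and 21.2 in the cytoplasm, that is 1 nuclear count in all. The negative differences belonged to RPL7AP19, at 85.7% identity, and to RPL13P8 and ENSG00000249721, at 71.5% and 72.0%. RPL7AP19 had 20.1 and 26.1 in the nucleus and 5.86 and 11.9 in the cytoplasm, and RPL13P8 had 20.9 and 21.0 in the nucleus and 2.35 and 9.28 in the cytoplasm. These fractions did not overlap, and neither locus passed the threshold (limma adjusted p = 0.0265 and 0.0226).

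Among the other named copies, the classes of parent protein followed the same direction in most cases. The classes were set by the start of the parent symbol, so some copies of related genes lie outside them. GPX1P1 (chrX:13378735-13379340, minus strand), a copy of the glutathione peroxidase gene GPX1, had the second-highest mean of the class and the highest per kilobase of exon, 602. It had 42.5 and 50.5 in the nucleus and 594 and 771 in the cytoplasm, a log2 difference of 3.86 ± 0.18 (limma adjusted p = 1.88e-06). Of 10 copies of splicing and other RNA-binding protein genes, 7 were called higher in the cytoplasm and PCBP2P1 higher in the nucleus. The 3 copies of SNRPG, a core protein of spliceosomal snRNPs, had log2 differences from 3.56 to 3.92. SNRPGP2 had 8.20 and 6.73 in the nucleus and 90.3 and 95.4 in the cytoplasm. YBX1P1 and YBX1P10, copies of the cold shock domain protein gene YBX1, were both called, at 2.65 and 3.43. Of 9 copies placed by symbol among nuclear and chromatin protein genes, 6 were called higher in the cytoplasm, among them SETP14, RANP1, HMGN2P5 and HMGN2P3. SETP14, a copy of the histone chaperone gene SET, had 7.46 and 12.6 in the nucleus and 82.1 and 79.5 in the cytoplasm (log2 difference 2.99 ± 0.32, limma adjusted p = 0.000121). NPM1P9, a copy of the nucleophosmin gene, was called higher in the nucleus, with 27.6 and 17.7 there and 5.86 and 5.30 in the cytoplasm.

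Smaller classes were mixed. Of the 3 copies of mitochondrial protein genes counted, UQCRFS1P1 and VDAC2P5 were called higher in the cytoplasm, and MTCO1P40, an insertion of mitochondrial DNA, had 11.9 and 20.2 in the nucleus and 15.2 and 17.2 in the cytoplasm, which overlap. Of 5 copies of chaperone and cyclophilin genes, PPIAP22 and PPIAP31 were called higher in the cytoplasm. PPIAP22, a copy of the cyclophilin A gene, had 8.20 and 14.3 in the nucleus and 157 and 138 in the cytoplasm (log2 difference 3.70 ± 0.31, limma adjusted p = 2.87e-05). None of the 3 heat shock protein copies passed the threshold in the limma fit, where their adjusted p-values were 0.0175, 0.0798 and 0.607. HSPD1P4 had 29.8 and 28.6 in the nucleus and 21.1 and 2.65 in the cytoplasm, so its cytoplasmic replicates disagreed. RAC1P2 and UBE2SP1, the only loci whose symbols fell in the small GTPase and the ubiquitin class, were called at log2 differences of 2.82 and 2.37. Of the 3 loci placed by symbol in the cytoskeleton class, ANXA2P2 was called higher in the cytoplasm, and TUBAP11 and KRT8P4 higher in the nucleus. KRT8P4, a keratin 8 copy, had 35.8 and 31.1 in the nucleus and 1.17 and 0 in the cytoplasm.

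The calls differed with identity to the parent, though not in the same way in all families. Identity is that of the best aligned stretch, and the bins were chosen after the values had been seen. Of 79 pseudogenes with at least 95% identity, 66 were called higher in the cytoplasm and none higher in the nucleus, with a median log2 difference of 2.68. Of 29 with 85% to 95%, 17 were called higher in the cytoplasm and 3 in the nucleus, with a median of 2.20. In this middle bin, 7 of 7 EEF1A1 copies and 7 of 9 ribosomal protein copies were called higher in the cytoplasm, with medians of 2.81 and 2.74. The 13 copies of other parents had 3 calls in each direction and a median of -0.44. Of 22 under 85%, 1 was called higher in the cytoplasm and 9 in the nucleus, with a median of -1.79. The first bin had 83.5% called higher in the cytoplasm, where the background over tested genes with a mean of at least 10, most of them with far higher counts, was 33.7%. The bin under 85% had 40.9% called higher in the nucleus, near the background of 36.5%, and 4.55% called higher in the cytoplasm. Without ribosomal protein copies, the first bin had 55 pseudogenes, 44 called higher in the cytoplasm and a median of 2.86. A window of 100 bases shared with the parent was found for 69 pseudogenes, of which 58 were called higher in the cytoplasm and none in the nucleus. Of the 61 with a parent and no shared window, 25 were called higher in the cytoplasm and 12 in the nucleus. Counts at most loci were small beside those at the parent. Over the 128 pseudogenes of any identity with both means, the median ratio of counts was 0.233%, and 91 were under 1%. For those that share a window with the parent, the median ratio was 0.236%. The part of read assignment in these values was not tested.

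The GAPDH copies show the same contrast within a family. GAPDHP1, at 95.9% identity, had 4.47 and 7.57 in the nucleus and 53.9 and 62.3 in the cytoplasm (log2 difference 3.21 ± 0.36). GAPDHP65, at 94.7%, had 2.98 and 5.05 in the nucleus and 39.9 and 19.9 in the cytoplasm (2.71 ± 0.50). GAPDHP21, at 86.4%, had 76.8 and 69.8 in the nucleus and 35.2 and 35.8 in the cytoplasm (-1.03 ± 0.21). All 3 were called, with limma adjusted p-values of 0.000157, 0.00221 and 0.00362, and no copy shared a 100-base window with GAPDH.

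**Figure D3:**
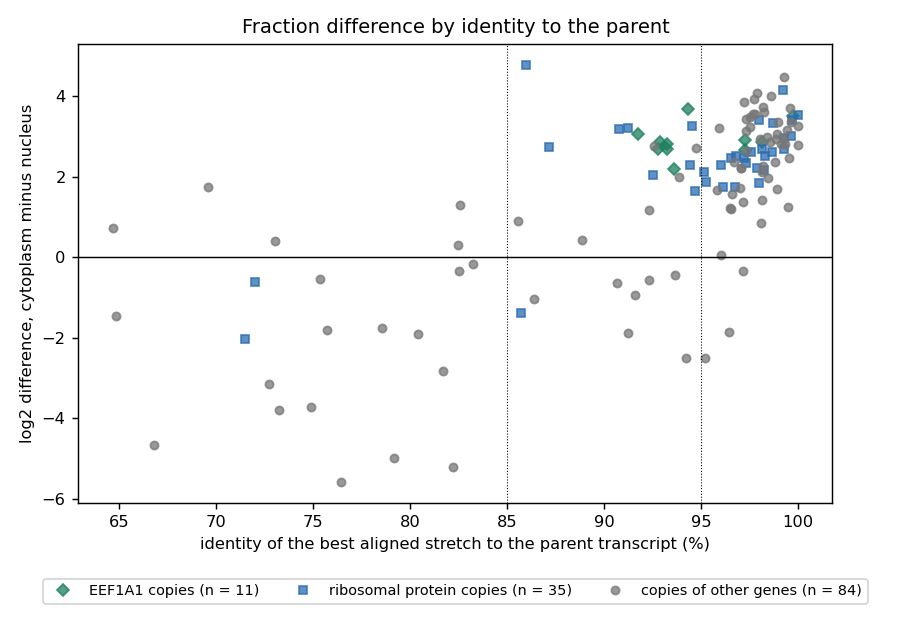
Log2 difference (cytoplasm minus nucleus) of the 130 pseudogenes with a parent against the identity of their best aligned stretch to the parent transcript in percent, with dotted lines at 85% and 95%. Points at 95% and above lie over 0 for 76 of 79, and points under 85% lie below 0 for 17 of 22.

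The loci that were higher in the nucleus had diverged from their parents or had none. Of the 17, 9 were under 85% identity, 3 lay between 85% and 95%, and 5 had no protein-coding match over the coverage minimum. The 3 with the highest means were neighbours on chromosome 7: ENSG00000243302 (chr7:128651185-128652334), ENSG00000230715 (chr7:128652841-128653243) and ENSG00000243679 (chr7:128653969-128654722), all on the plus strand. ENSG00000243679 had 277 and 252 in the nucleus and 90.3 and 95.4 in the cytoplasm, a log2 difference of -1.51 ± 0.15 (limma adjusted p = 6.14e-05). ENSG00000243302 had 221 and 212 in the nucleus and 64.5 and 43.7 in the cytoplasm (-2.02 ± 0.22, limma adjusted p = 0.000115). ENSG00000230715 had 115 and 134 in the nucleus and 56.3 and 46.4 in the cytoplasm (-1.27 ± 0.20, limma adjusted p = 0.000941). In each of the 3 both nuclear libraries were above both cytoplasmic ones. GENCODE 44 lists a lncRNA, ENSG00000242588, over all 3 on the same strand, so they share a locus and are not 3 independent observations.

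The nuclear calls with the lowest cytoplasmic counts came from thinly covered loci. ENSG00000219549 had 22.4 and 24.4 in the nucleus and 0 in both cytoplasmic libraries, and was at least 12.5-fold higher in the nucleus against a floor of 3 counts over the cytoplasmic libraries. ENSG00000230276 had 22.4 and 21.9 and likewise 0, at least 11.9-fold higher. TAS2R6P, a relative of taste receptor genes, had 26.8 and 19.3 in the nucleus and 1.17 and 0 in the cytoplasm. PCBP2P1, a copy of a poly(C)-binding protein gene, had 39.5 and 22.7 in the nucleus and 0 and 1.33 in the cytoplasm. ENSG00000278842, closest to KIAA1586, was better covered, with 73.1 and 85.8 in the nucleus and 4.69 and 6.63 in the cytoplasm (log2 difference -3.71 ± 0.32, limma adjusted p = 3.54e-05). ENSG00000266910, at 94.2% identity to the TAF9 gene of a general transcription factor, had 29.8 and 38.7 in the nucleus and 5.86 and 5.30 in the cytoplasm. Among copies of SNX18, only ENSG00000277103 was called by limma, with 88.0 and 79.0 in the nucleus and 29.3 and 18.6 in the cytoplasm. SNX18P7 had 128 and 145 in the nucleus and 106 and 82.2 in the cytoplasm (-0.54 ± 0.19, limma adjusted p = 0.0378).

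Loci that overlap another annotated gene on the same strand were more often called higher in the nucleus than in the cytoplasm. In GENCODE 44, 14 of the 141 lie under or over another gene on the same strand. Of these 14, 8 were called higher in the nucleus and 2 in the cytoplasm, with a median log2 difference of -1.66. The 8 are 57.1%, against 36.5% over tested genes with a mean of at least 10. They include the chromosome 7 neighbours under ENSG00000242588, which are not independent observations. NPM1P9 overlaps FANCB, ENSG00000277103 overlaps CTSV, TAS2R6P overlaps SSBP1 and ZNF33BP1 overlaps ZNF248. The 2 cytoplasmic ones are ZNF204P and NUS1P2. ZNF204P had 61.9 and 103 in the nucleus and 326 and 220 in the cytoplasm (1.74 ± 0.28, limma adjusted p = 0.0011), and is the only pseudogene under 85% identity that limma called higher in the cytoplasm. Of 52 with another gene on the opposite strand only, 41 were called higher in the cytoplasm and 1 in the nucleus. Of 75 with no other gene, 43 were called higher in the cytoplasm and 8 in the nucleus. Of the 12 among these 75 with less than 85% identity, 5 were called higher in the nucleus and none in the cytoplasm. The 5 are 41.7%, near the 36.5% over tested genes with a mean of at least 10. Although the kit keeps strand, whether the counting used it is not given in the sources used here, so reads of a gene on the opposite strand cannot be told apart. The part of reads from overlapping genes was not tested.

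Each pseudogene was then set beside its parent, which is the matched gene for its sequence. Parents with means over 3500, such as EEF1A1, GAPDH and most ribosomal protein genes, could not be solved and are left out. Most of the solved parents had means over 60, where the deposited fold change entered the solution. For 29 pseudogenes of 25 parents the parent was given by name and solved. The median log2 difference was 2.46 for these pseudogenes and 1.06 for their parents. The pseudogene's log2 difference was above the parent's in 23 pairs and below it in 6, with a median difference of differences of 1.26 on the log2 scale. All 4 pairings of a nuclear with a cytoplasmic library gave a value above 0 in 16 of the 29 pairs by name and below 0 in 6. With parents found by name or sequence, 26 pseudogenes were above and 17 below, with a median of 0.28. All pairings were then above 0 in 19 and below 0 in 16. In the 17 pairs by name with at least 95% identity, the pseudogene was above its parent in every pair of these 17, by 0.0014 to 3.82. All library pairings were above 0 in 12 of the 17, and the ranges of UQCRFS1P1, GPX1P1, RCN1P2, PHC1P1 and CACYBPP2 spanned 0. In the 12 pairs by name under 95% the pseudogene was above in 6 and below in 6. The authors counted reads over exons and introns together, so a parent's value holds unspliced RNA and that of a copy without introns does not. The part of this in the difference was not tested. The pseudogenes were also selected by a minimum mean, which low loci reached mostly through the fraction where they were high. Their parents were not selected in this way, and the part of that choice in the difference was not tested either.

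RWDD4P2 and MORF4L1P1 were further to the cytoplasm than their parents. RWDD4P2 had 5.22 and 6.73 in the nucleus and 113 and 94.1 in the cytoplasm, a log2 difference of 4.01, against 0.90 for RWDD4. MORF4L1P1, a copy of a chromatin protein gene, had 15.7 and 16.0 in the nucleus and 124 and 125 in the cytoplasm, a log2 difference of 2.94, against 0.79 for MORF4L1. The difference of differences ranged from 2.80 to 3.43 over library pairings for the first and from 2.11 to 2.18 for the second. NUS1P2 and SNRPGP2 exceeded NUS1 and SNRPG by 1.45 and 1.39. FNBP1P1 exceeded FNBP1 by 0.92, with a range from 0.25 to 1.60. GPX1P1 and GPX1 had the same difference within the replicate spread: 3.86 and 3.84, and 0.01 between them with a range from -0.21 to 0.23. SNX18P7 was below SNX18, by -1.83 with a range from -2.09 to -1.57, since SNX18 was called higher in the cytoplasm at 1.29. DHFRP1 and LSM12P1 are identical to their parents over the aligned stretch and had few counts, with means of 12.5 and 12.1. LSM12P1 had a log2 difference of 2.79 where LSM12 had -0.83.

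**Figure D4:**
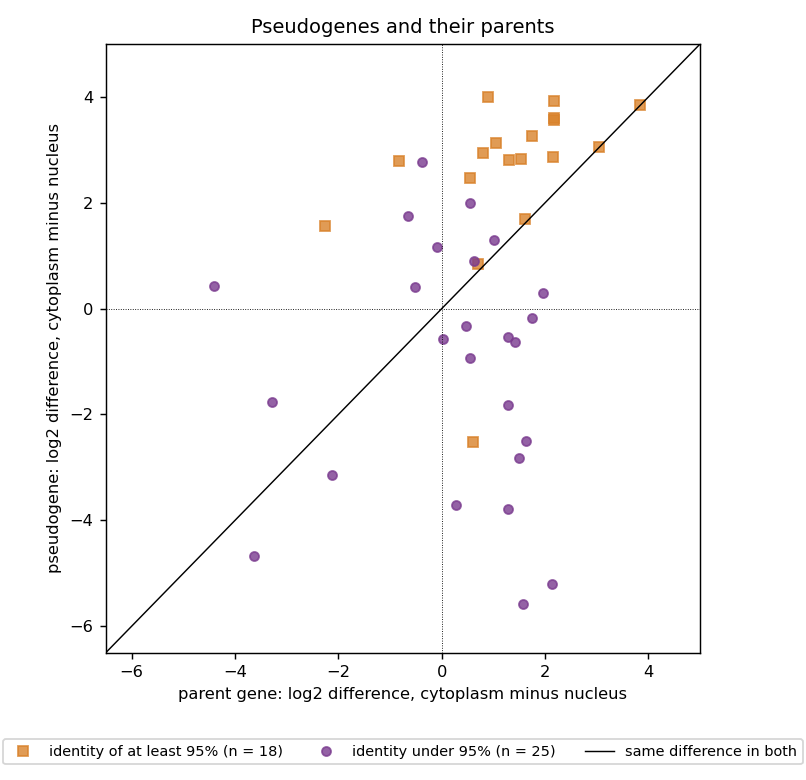
Log2 difference (cytoplasm minus nucleus) of 43 pseudogenes, vertical, against that of the parent gene, horizontal, for parents found by name or sequence whose difference was fitted. Of the squares, with at least 95% identity, 17 of 18 lie above the line of equal differences, and 16 of the 25 circles, with less, lie below it.

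The loci nearest to the minimum mean of 10 are given as values only. The 5 just inside it were CACYBPP2, ENSG00000250669, ENSG00000257511, ENSG00000264148 and SNX18P14, with means from 10.0 to 10.5 and log2 differences from -3.79 to 2.86. The 5 just outside it were ENSG00000180211, ENSG00000261970, EIF4A1P2, ENSG00000186076 and ENSG00000241494, with means from 9.88 to 9.98 and log2 differences from -3.71 to 3.15. Counts at this level were small: CACYBPP2 had 5 and 1 counts in the nuclear libraries and 10 and 18 in the cytoplasmic ones. The replicate libraries of a fraction differed by a median of 0.48 (nucleus) and 0.42 (cytoplasm) log2 units over the class, against 0.15 and 0.17 over all solved genes with a mean of at least 10.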

How the data were processed

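The authors prepared stranded, ribosomal RNA depleted libraries, read from both ends for 100 nt, aligned them to hg38 with STAR and counted them with featureCounts 2.0.2 over exons and introns. Their annotation was GENCODE 34 with added genes, and stretches under more than 1 gene were removed. The deposited mean column is a signal: the authors' mean, over the 4 libraries, of counts divided by size factors, and it is printed where a parent's mean is given. The other deposited columns hold the authors' DESeq2 comparison: a log2 fold change, its standard error on the log2 scale, a Wald statistic and p-values. The last 2 were not used, and none of these values is printed or compared with those here.

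The 4 counts behind each mean were solved as the whole numbers that give it to 10 significant digits, given 4 steps read from the lowest means. Genes with 1 count show each step's fraction through the sign of the deposited fold change. Where several sets of counts gave the same mean, the set that also gave the deposited fold change was taken. The log2 distance allowed was at most 5e-04, or 2e-05 and 1e-06 for means over 100 and 1000. The deposited standard error was not matched and only set the dispersion used to compute each set's fold change. For means over 60, only sets near the fraction means given by the deposited fold change were searched. For KRT8P4 and PCBP2P1, the set nearest in fold change was taken. The deposited fold change thus enters 34 of the 141 solutions, a use that had not been planned. It also entered the solution of every solved gene with a mean over 60. That covers most of the solved parents and most genes behind the background shares at a mean of at least 10. Solved were 31223 of 32478 genes with a mean above 0; 1145 had means over 3500 and 110 others had no single solution. The solving step and the fit were tested on simulated data. Which replicate number belongs to which library is not known.

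Log2(count / size factor + 0.5) was fitted with limma 3.58.1 (R 4.3.3, trend and robust empirical Bayes, no covariate) over 23953 genes with a mean of at least 1, and p-values were adjusted by Benjamini-Hochberg. The p-values rest on the spread between 2 biological replicates per fraction. A fold change on this scale understates the change of low genes. The ± values are limma standard errors, which rest on the spread between replicates. The ranges given against parents are the lowest and highest values over the library pairings. Floors cover counting error only. Sequences and coordinates came from GENCODE 44, and parents from the symbol or, without one, from blastn (BLAST+ 2.17.0) against its protein-coding transcripts. The genes named were the 12 highest means, the 6 largest and 6 lowest called differences at a mean of at least 50, the 5 on each side of the minimum mean, the 5 largest and 5 lowest differences from the parent where both means were at least 50, the highest of each class of parent, any poly(A)-binding protein copies, and the parents of these; other loci named were chosen after their values were seen. The pseudogenes and gene classes were chosen with earlier results of these data known.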

Additional observations from a re-analysis of the deposited data

How the results depend on the processing

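The count called higher in the cytoplasm was 86, and 74 to 101 under another pseudocount, centring on protein-coding genes, equal library totals, another gene filter, limma voom or an adjusted p of at most 0.05; the count called higher in the nucleus was 17, and 14 to 25. With 1 library left out, these counts ranged from 0 to 74 and from 0 to 21. They were 0 without nuclear library A and without nuclear library B, where no gene of the 23953 passed in limma and 91 and 95 of the pseudogenes had an unadjusted p under 0.05. The spread then came from the cytoplasmic pair alone, and the lone nuclear library is assumed to vary like it. The median difference ranged from 1.92 to 2.31 with 1 library left out, and the median difference from the parent from 0.99 to 1.27. At a minimum mean of 50, 27 pseudogenes were left, with 19 called higher in the cytoplasm, 5 in the nucleus and a median of 2.69. With a pseudocount of 2, the medians were 1.95 and, against the parent, 0.85. The median against the parent was 0.92 with 1 value per parent and 0.28 over the 43 pseudogenes with parents found by name or sequence, which adds diverged copies. In settings added after seeing the data, 57 were called higher in the cytoplasm, with a median of 1.73, without ribosomal protein copies, and 9 in the nucleus without loci that overlap a gene on the same strand. For the 31 pseudogenes named by rule, no difference changed sign under another pseudocount, scaling, filter, voom or with 1 library left out. No paired analysis was possible because the table does not tie the replicate numbers to the libraries. The median log2 difference of all genes was -0.20, and lay between -0.38 (no gene filter) and -0.08 (a minimum mean of 10).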
